A study of Mus musculus with 2 samples.

Results

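The genes described here encode the protein parts of the cytosolic and the mitochondrial ribosome, translation factors and aminoacyl-tRNA synthetases, measured in lung of mice that lack Bclaf1 and in lung of wild-type mice. They were taken from the authors' lists of clones that went up or down, as every clone with a gene symbol and an annotation to structural constituent of ribosome, ribosome or translation. This gave 75 clones of 63 genes, out of 2597 clones of 2327 named genes in those tables and 22656 clones on the array. By symbol, 20 genes belong to the cytosolic ribosome, 9 to the mitochondrial ribosome, and 34 are factors, synthetases and other annotated genes. RNA of Bclaf1 knockout lung and RNA of wild-type lung shared each of 2 spotted cDNA arrays, and each array gave a log2 ratio per clone. The series title gives postnatal day 1 and the sample titles give embryonic day 19. The labels say neither how Bclaf1 was deleted, nor the strain, nor whether the numbered RNA samples came from separate animals, so every SD and p-value below reflects array-to-array spread that may be purely technical.

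Ribosomes are built from ribosomal RNA and a large set of ribosomal proteins that are normally made in matched amounts. Cytosolic ribosomes translate nuclear messages, whereas mitochondrial ribosomes have their own nuclear-encoded proteins and translate only the few messages of the mitochondrial genome. Initiation factors place the ribosome on the start codon, elongation factors bring in aminoacyl-tRNAs and move the ribosome, and synthetases charge the tRNAs. Bclaf1 is a nuclear protein of messenger RNA processing.

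Knockout RNA carried Cy3 and wild-type RNA carried Cy5 on both arrays, and without a dye swap the effects of dye and genotype cannot be told apart. The numerator of the deposited ratio is not stated. If the list names are followed, the negative side means lower in knockout lung; if the ratio is Cy5 over Cy3, the negative side means higher in knockout lung. All values below are therefore given by side only, and the other reading would turn all signs together. The only clone named Bclaf1 lay on the positive side, at 0.40 on array 1 and 0.41 on array 2, and the sources used here do not place it relative to the deletion, so it checks nothing. Names exist only for clones that the authors had chosen on these same arrays, so a member's distance from 0 reflects that choice and is a description. The SD across clones was 0.295 on array 1 and 0.430 on array 2, and the array medians were 0.0068 and 0.0041. The array number limits the precision of every value.

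The sequences around the annotated transcription start are shown for the cytosolic ribosomal protein genes whose start lies in a run of pyrimidines, because messages of such genes often begin with a terminal oligopyrimidine tract through which their translation is controlled. They come from RefSeq (GRCm38.p6), which held a promoter for 42 of the 59 member genes whose symbol and gene ID agree. Where a gene had several starts, the first in the table was used. Each line holds 60 bases before the start and 20 from the start on, read along the strand of the gene, and capitals mark the uninterrupted run of C and T that covers the start base.
Rpl15, chr14:18270967-18271046, minus strand: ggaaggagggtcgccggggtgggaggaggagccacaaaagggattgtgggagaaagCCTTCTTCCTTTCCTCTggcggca
Rpl35, chr2:39005112-39005191, minus strand: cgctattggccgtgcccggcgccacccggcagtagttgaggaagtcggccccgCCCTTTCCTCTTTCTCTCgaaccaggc
Rpl38, chr11:114668520-114668599, plus strand: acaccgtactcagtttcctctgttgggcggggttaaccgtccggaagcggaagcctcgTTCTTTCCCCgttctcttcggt
Rps10, chr17:27635225-27635304, minus strand: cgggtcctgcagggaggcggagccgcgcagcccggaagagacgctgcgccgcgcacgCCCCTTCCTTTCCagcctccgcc
Rps21, chr2:180257319-180257398, plus strand: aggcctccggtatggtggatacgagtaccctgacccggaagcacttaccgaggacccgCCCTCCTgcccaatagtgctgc

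A run of at least 6 pyrimidines covered the annotated start in 5 of 14 cytosolic ribosomal protein genes, 0 of 8 mitochondrial ribosomal protein genes and 1 of 20 factor genes, and in 7.10% of all 27025 promoters. These counts rest on 1 annotated start base per gene, so they do not show that the other genes lack such a tract. The genes with a run were not all on 1 side. Rpl15 had 17 such bases and lay on the positive side, and the clones of Rpl38 lay on opposite sides. Rpl35 with 18, Rps10 with 13 and Rps21 with 7 lay on the negative side, as did most cytosolic genes. For the Rpl15 clone and both Rpl38 clones the chromosome given differs from that of the gene in RefSeq. The ETS-type motif CCGGAAG, searched on both strands over 250 bases before to 50 bases after the start, was in 8 of the 14 cytosolic, 2 of the 8 mitochondrial and 7 of the 20 factor promoters, and in 9.12% of all promoters. The YY1-type motif GCCATNTTG was in 1, 2 and 2 of these promoters and in 2.65% of all. For comparison, the next lines show Rpl11, the cytosolic gene with a promoter that lay farthest to the negative side, and Mrps18a, the mitochondrial gene that lay farthest to the positive side. Here capitals mark these motifs, which do not overlap.
Rpl11, chr4:136053374-136053453, minus strand: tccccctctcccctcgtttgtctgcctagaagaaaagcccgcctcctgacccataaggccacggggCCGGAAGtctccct
Mrps18a, chr17:46110944-46111023, plus strand: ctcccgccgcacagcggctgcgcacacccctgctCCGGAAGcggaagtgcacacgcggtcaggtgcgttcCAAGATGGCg

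Cytosolic ribosomal protein genes lay mostly on the negative side, by a small amount. Of the 20 genes, 17 lay on the negative side and 3 on the positive, and the median log2 ratio was -0.29, beside a share of 51.7% negative and 48.3% positive and a median of -0.11 over the 2319 named genes with a value on both arrays. Over all 22532 clones tested, named or not, the median was 0.012. The 23 negative clones had a median of -0.35 on array 1, with values from -0.71 to -0.19. On array 2 their median was -0.29, with values from -0.59 to -0.12. Because listed clones avoid values near 0, these medians partly reflect the authors' choice. All 26 clones had the same sign on both arrays, as had 99.6% of the 3496 listed clones they were drawn from and 69.6% of all clones tested, so this is no trait of the ribosomal clones. Limma with Benjamini-Hochberg adjustment over all clones called 0 of the 26, as it called 0% of all clones; at an unadjusted p under 0.05 it gave 17 of the 26, a share near the 59.4% of named clones in the tables, beside 13.9% of all clones. In bulk tissue fewer cells of a type and less RNA per cell cannot be told apart.

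In the small subunit, by symbol, 10 of 10 genes lay on the negative side, with a median log2 ratio of -0.30. Each was represented by 1 clone, and neither array held a positive value. Rps27a, which is made as a fusion with ubiquitin, had -0.38 on array 1 and -0.31 on array 2. Rps13 had -0.37 and -0.29, and Rps15, which lies near the decoding site, had -0.31 on both arrays. Rps10, which is ubiquitinated on stalled ribosomes, had -0.27 and -0.28. These 4 genes were close to each other on both arrays. Rps14 had -0.41 and -0.12, Rps16 had -0.33 and -0.15, and Rps21 had -0.33 and -0.20, so these were nearer to 0 on array 2 than on array 1.

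In the large subunit 7 of 10 genes were negative, and some genes had several named clones. Clones of these genes that the authors did not list carry no name, so the named clones are no independent check. Rplp1, an acidic protein of the stalk that recruits elongation factors, had -0.71 and -0.36 in 1 clone and -0.54 and -0.33 in the other, and its mean of -0.49 ± 0.20 (SD, n = 2 arrays) was the farthest of the cytosolic ribosome. Those clones lie in the same part of the clone collection. Rpl37a had means of -0.43, -0.21 and -0.45 in its 3 clones, and Rpl41, a very small basic protein, had clone means of -0.22 and -0.48. Rpl10a, of the L1 stalk, had clone means of -0.33 and -0.28. All named clones of these 4 genes were on the negative side on both arrays. Among the genes with 1 clone, Rpl11, which binds Mdm2 when ribosome assembly is disturbed, had -0.41 and -0.38, Rpl35 had -0.30 and -0.28, and Rpl39, which lines the exit tunnel, had -0.26 and -0.18.

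By symbol, the exceptions were all in the large subunit. Both clones under Wwp2, which carry the gene ID of the small subunit gene Rps26, were positive and are counted among the factors. Rpl15 lay at 0.30 on array 1 and 0.36 on array 2, and Rpl22l1, a paralogue of Rpl22, lay at 0.35 and 0.21. Rpl38, which in mice is needed for translation of a subset of homeobox messages, was the only cytosolic ribosomal gene with clones on opposite sides. Its first clone had -0.36 and -0.55 and its second 0.60 and 0.48, so the clones were opposed on both arrays and the gene mean of 0.041 describes neither. Ribosomal protein genes have many near-identical copies: RefSeq names at least 1 pseudogene after 14 of these 20 genes. For 6 of the 26 clones, from 5 genes, the tables give another chromosome than RefSeq gives for the gene, both Rpl38 clones and the Rpl15 clone among them. Which copy a clone hybridised with was not tested.

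**Figure D1:**
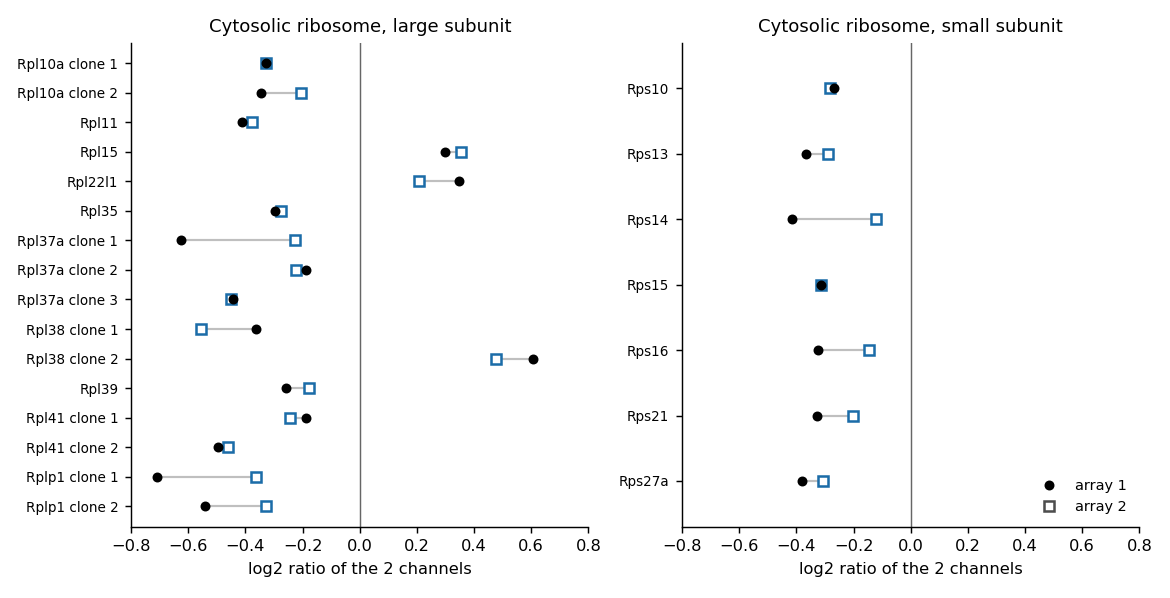
Log2 ratio of the channels (horizontal axis) for the cytosolic ribosomal protein clones named in the text, on array 1 (filled circle) and array 2 (open square), with a line joining the arrays. The small subunit clones all lie left of 0 on both arrays, whereas Rpl15, Rpl22l1 and the second Rpl38 clone lie right of 0.

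The sides of these clones went with their position in the clone collection. The clone numbers were split into 59 blocks of equal length, about the size of a clone plate, and 20 of the 26 cytosolic ribosomal clones fell in blocks 28 to 40, a range that was picked after the values were seen. There, 19 of the 20 were negative, beside 85.2% of the 880 listed clones of any name in those blocks, so this share lies near its surroundings. The 1 exception, the second Rpl38 clone, was in block 36, where 41 of the 58 listed clones were positive. Outside these blocks 4 of 6 were negative, beside 47.6% of 2616 listed clones. Those 4 were the first clones of Rpl37a and Rpl41, Rps27a and Rps13, and the positive 2 were Rpl15 and Rpl22l1. Averaged over the blocks of all 26 clones, 73.7% of the other listed clones were negative, against 88.5% of the ribosomal clones. With each block's median subtracted, 23 of the 26 clones were negative, and the median of the 26 moved to -0.27 beside -0.30 as deposited. The count had little room to change. The weakest negative clone mean was -0.21, and the medians of these blocks ran from -0.14 to 0.15.

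**Figure D2:**
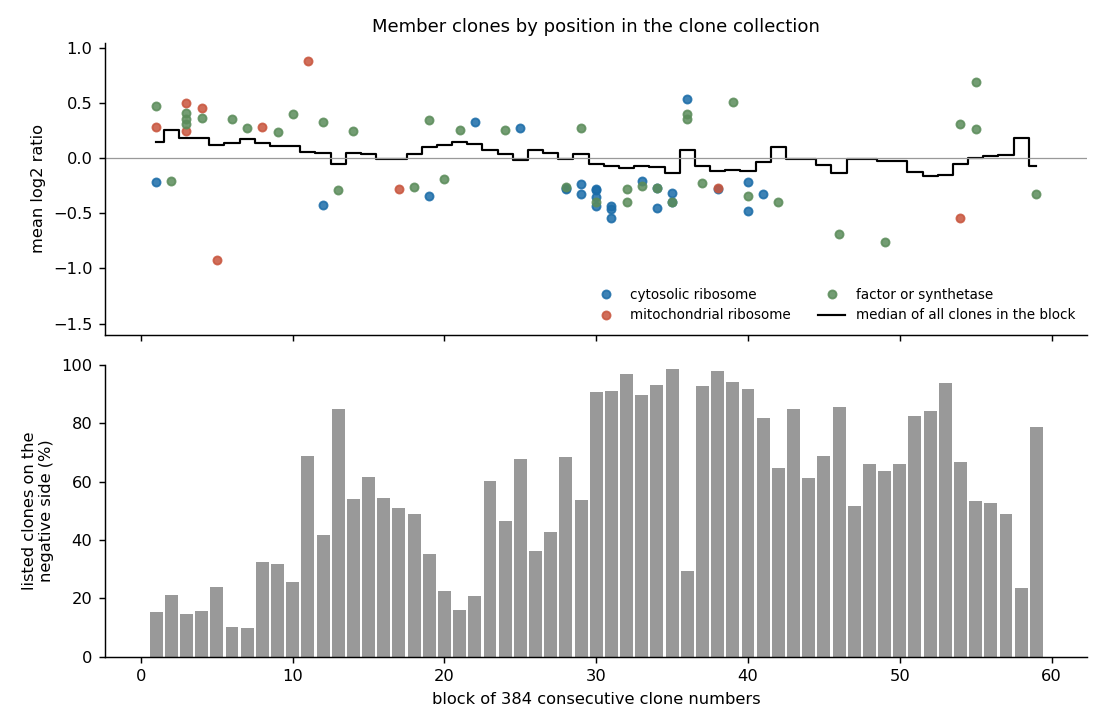
Upper panel, mean log2 ratio of each member clone (points, coloured by class) by block of consecutive clone numbers, with the median of all clones of the block as a line. Lower panel, percentage of the clones in the authors' tables that lay on the negative side, by block. Cytosolic ribosomal clones crowd into blocks 28 to 40, where 85.2% of listed clones were negative, with block 36 as an exception.

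Mitochondrial ribosomal protein genes lay on both sides. Of 9 genes, 6 lay on the positive side and 3 on the negative, beside 48.3% positive and 51.7% negative of all named genes. The median log2 ratio was 0.28 and the mean was 0.15. Here too the median shows mainly which side held more genes, as listed clones avoid values near 0. All 10 clones had the same sign on both arrays, as had 99.6% of all listed clones. Each of the 5 genes named for the small subunit was positive, and 3 of the 4 named for the large subunit were negative. Position went with part of this split, and its share was not tested. Mrps7, Mrps9, Mrps23 and Mrps11 lay in blocks where 14.8% to 32.4% of listed clones were negative, but Mrps18a where 68.8% were. Mrpl16 lay where 98.1% were negative, Mrpl23 where 51.0% were, and positive Mrpl48 where 15.7% were. For the Mrpl19 clones the shares were 23.9% and 66.7%. Limma called 0 of the 10 clones after adjustment and gave 7 at an unadjusted p under 0.05, beside 59.4% of named clones and 13.9% of all clones. Their clones mostly sat in other blocks than the cytosolic ones, 9 of 10 outside blocks 28 to 40. Of the other listed clones in their blocks 40.5% were negative, against 40% of these clones, so this share lies near its surroundings. With block medians subtracted the gene median was 0.16, the sides of all 9 genes stayed, and 8 of the 10 clones kept 1 sign over both arrays. Mrps23 moved most in proportion, to 0.063.

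Mrps18a was the farthest member on the positive side, with log2 ratios of 0.93 and 0.83 on the arrays, averaging 0.88 ± 0.070 (SD, n = 2) or 1.84-fold between the channels. It is a relative of bacterial S18 that structural work places in the large subunit despite its name. It lay against its surroundings, since 68.8% of listed clones in its block were negative. Mrps9 had 0.70 and 0.30, Mrps7, related to bacterial S7, had 0.24 and 0.34, Mrps11 had 0.27 and 0.29, and Mrps23 had 0.23 and 0.27. The last 3 differed little between arrays, whereas Mrps9 was clearly farther from 0 on array 1. Mrpl48 was the only large subunit gene on the positive side, with 0.57 and 0.36.

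Mrpl19 was the farthest mitochondrial gene on the negative side and was represented by clones far apart in the collection. The clone of block 5 had -0.75 and -1.10, although only 23.9% of listed clones in that block were negative. The clone of block 54 had -0.35 and -0.74. Both clones were farther out on array 2, and the gene mean was -0.73 ± 0.26 (SD, n = 2), or 1.66-fold. Mrpl23 had -0.21 and -0.34 and Mrpl16 had -0.11 and -0.43, which on array 1 lay close to the bulk of all clones.

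**Figure D3:**
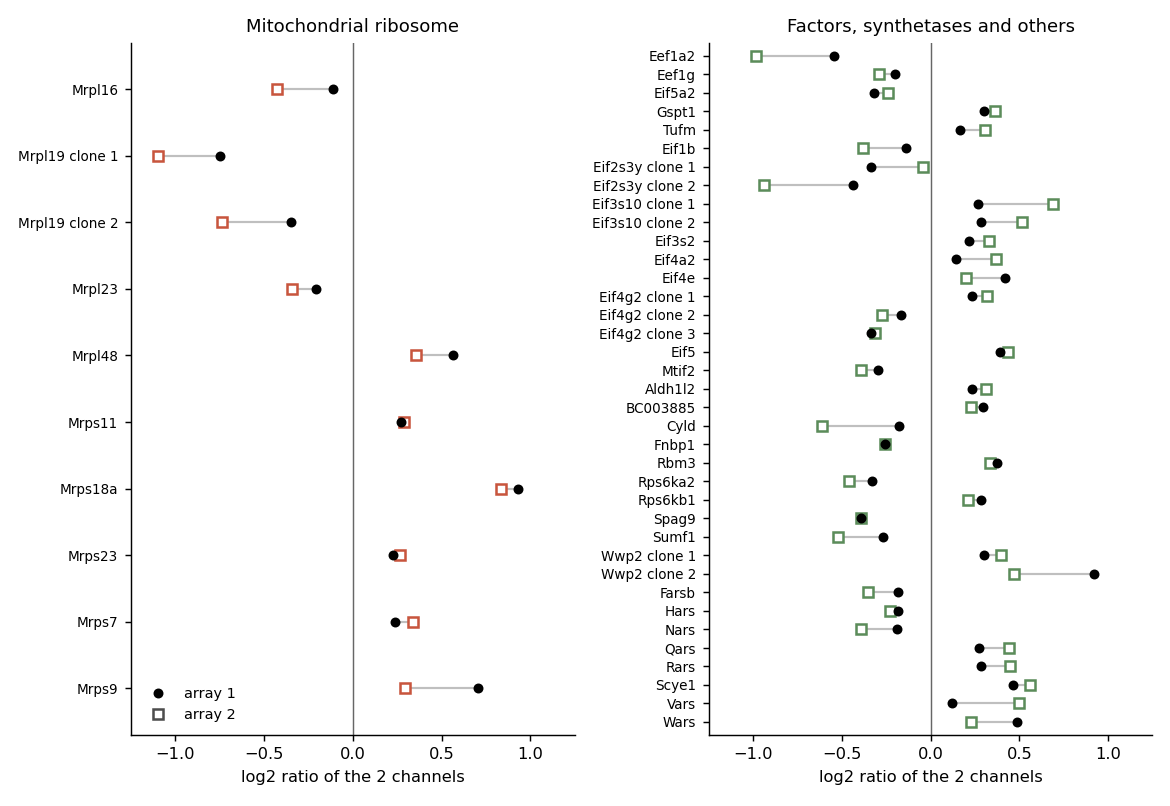
Log2 ratio of the channels for the clones named in the text of the mitochondrial ribosome (left panel) and of the factors, synthetases and other annotated genes (right panel), on array 1 (filled circle) and array 2 (open square). The genes named Mrps lie right of 0, Mrpl19 has both clones left of 0, and Eif4g2 has clones on either side.

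Factors, synthetases and the remaining annotated genes were split between the sides. Of the 33 genes with a value on both arrays, 18 lay on the positive side and 15 on the negative. Their median log2 ratio was 0.25, or 0.13 with block medians subtracted, and their mean was 0.036. Since listed clones avoid values near 0, the median shows only which side held more genes. Among 9 initiation factor genes 5 lay on the positive side and 4 on the negative. Limma called 0 of the 38 clones of this class after adjustment and gave 19 at an unadjusted p under 0.05, beside 59.4% of named clones and 13.9% of all clones.

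Parts of initiation factor 3 and of the cap-binding machinery were positive. Eif3s10, now Eif3a, the scaffold subunit of initiation factor 3, had 0.27 and 0.69 in 1 clone and 0.28 and 0.51 in the other, and its partner Eif3s2, now Eif3i, had 0.22 and 0.33. Eif4e, which binds the cap, had 0.42 and 0.20, and the helicase Eif4a2 had 0.15 and 0.37. Eif5, which triggers GTP hydrolysis at the start codon, had 0.39 and 0.43. All of these clones were positive on both arrays, and all lay in mostly positive blocks, where 10% to 25.5% of listed clones were negative. With block medians subtracted, the means were 0.13 for Eif4e, against 0.31 as deposited, 0.12 for Eif3s2, against 0.27, 0.13 for Eif4a2, against 0.26, and 0.23 for Eif5, against 0.41. Eif4g2, a relative of the scaffold Eif4g1 that does not bind Eif4e, had its clones on opposite sides, at means of 0.27, -0.22 and -0.32, and each clone kept its sign on both arrays. Eif1b, a paralogue of the start-selection factor Eif1, had -0.14 and -0.38, and Mtif2, the mitochondrial counterpart of bacterial initiation factor 2, had -0.30 and -0.39.

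Eif2s3y, the Y-linked gene for a subunit of initiation factor 2, was negative in both clones, with -0.34 and -0.04 in the first and -0.44 and -0.94 in the second. The Y-linked helicase Ddx3y lay on the same side at -1.12 and -0.61, and Xist, the RNA of the inactive X chromosome, lay on the other at 2.69 and 2.15. The labels do not state the animals' sex, and its part in the other ratios was not tested.

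Elongation and termination factors included the member gene with the most negative mean. Eef1a2, the form of elongation factor 1 alpha known from neurons and muscle, had -0.54 and -0.98, a mean of -0.76 ± 0.31 (SD, n = 2) or 1.70-fold. Eef1g, of the exchange complex of that factor, had -0.20 and -0.29, and Eif5a2, a hypusine-containing factor, had -0.32 and -0.24. The termination factor Gspt1 had 0.30 and 0.36. Of the mitochondrial factors, Tufm, which delivers tRNAs, was positive with 0.17 and 0.31, whereas Gfm1, which moves the ribosome, had -0.42 on array 1 and no value on array 2. Gfm1 was the only member without a value on both arrays and is left out of all counts by side.

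Of the synthetase genes and their scaffold 5 were positive and 3 negative. Qars, for glutamine, had 0.27 and 0.44, Rars, for arginine, had 0.29 and 0.45, and Scye1, now Aimp1, had 0.46 and 0.56. The products of these 3 genes sit together in the multi-synthetase complex, Aimp1 as a scaffold. Scye1 stood out from its block, in which 94.0% of listed clones were negative, whereas Qars lay in the mostly positive block 36. Rars also lay in a mostly positive block, where 15.7% of listed clones were negative. Wars, for tryptophan, had 0.49 and 0.23, and Vars, for valine, had 0.12 and 0.50, so these enzymes were positive too but uneven between arrays. In the block of Wars 10.3% of listed clones were negative, and in that of Vars 66.7%. With block medians subtracted, the means were 0.20 for Rars, against 0.37 as deposited, 0.23 for Wars, against 0.36, and 0.28 for Qars, against 0.36. Those of Scye1 and Vars were 0.64, against 0.51, and 0.36, against 0.31. On the negative side were Farsb, a phenylalanine enzyme subunit, with -0.18 and -0.36, Hars, for histidine, with -0.18 and -0.23 (a mean of -0.45 with its block's median subtracted), and Nars, for asparagine, with -0.19 and -0.39.

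The remaining annotated genes act around the ribosome or have other main roles. Rps6kb1, the ribosomal S6 kinase downstream of mTOR, had 0.29 and 0.21, and Rps6ka2, a kinase of the ERK pathway, had -0.33 and -0.46. These kinases share a name but lay on opposite sides. The cold-induced RNA-binding protein Rbm3 had 0.37 and 0.34, and BC003885, named Rsl24d1 in RefSeq and related to a yeast factor of large subunit assembly, had 0.29 and 0.23. The mitochondrial folate enzyme Aldh1l2 had 0.23 and 0.31. The deubiquitinase Cyld had -0.18 and -0.61 and the membrane-bending protein Fnbp1 had -0.25 and -0.26. Cyld and Fnbp1 carry ribosome annotations in the tables although their main known roles are elsewhere.

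For 5 member clones the symbol and the gene ID name different genes. The clones under Spag9 (ID of Rpl27) and Sumf1 (ID of Rpl36) were negative, with -0.39 on both arrays and with -0.27 and -0.52. The clones under Wwp2 carry the ID of Rps26 and had 0.30 and 0.40, and 0.92 and 0.47. Placed by gene ID, the 5 clones would make 19 of 23 cytosolic ribosomal genes negative, with a median of -0.29.

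Across the 74 member clones with both values, none was called by limma, and the adjusted p ran from 0.349, which was also the lowest over all clones, to 0.444. At an unadjusted limma p under 0.05 there were 43 member clones, 58.1%, beside 59.4% of the named clones in the tables. The share of members thus lies near that of the tables they were drawn from. Of these clones 19 were positive and 24 negative, beside 8% positive and 5.92% negative of all clones. Past 1.5-fold on both arrays were 1 positive member clone, of Mrps18a, and 1 negative, of Mrpl19, beside 0.506% and 0.311% of all clones in those directions, and 2.94% and 1.08% of the named clones. The median SD over arrays was 0.083 for member clones and 0.12 for all clones. Pearson's r between the arrays was 0.87 over the 74 member clones, 0.81 over all named clones and 0.36 over all clones. Clones share their arrays and the authors' choice, so these are descriptions.

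**Figure D4:**
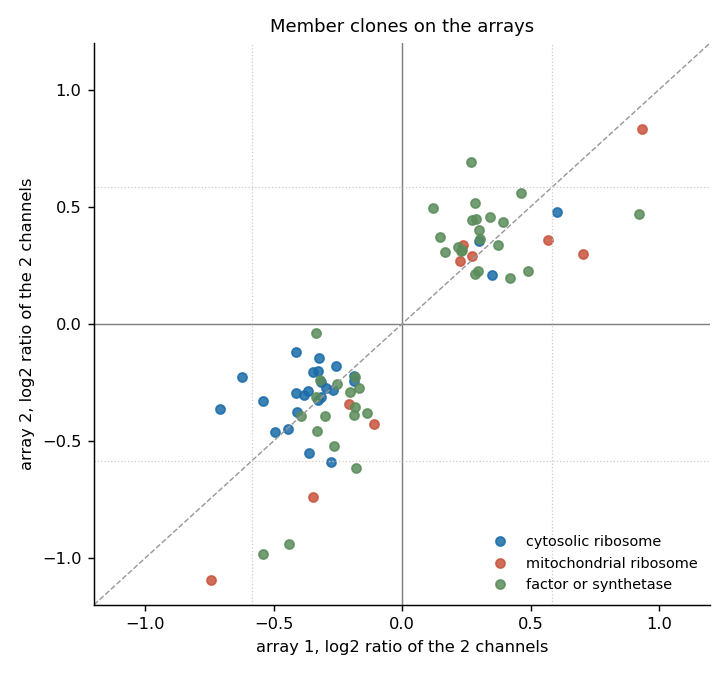
Log2 ratio of each member clone on array 1 (horizontal axis) and array 2 (vertical axis), coloured by class, with dotted lines at 1.5-fold and the diagonal dashed. All 74 clones lie in the quadrants where the arrays share a sign, and only the Mrps18a clone and a Mrpl19 clone lie past 1.5-fold on both.

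Position also went with the side of the members as a whole. Of the 74 member clones 58, or 78.4%, lay on the side of most other listed clones of their block, beside 72.9% of all 3496 listed clones with both values. The 16 that did not included 4 cytosolic clones (Rpl22l1, Rps27a and the first clones of Rpl37a and Rpl41). They also included 3 mitochondrial ones (Mrps18a, Mrpl23 and the block 5 clone of Mrpl19). The rest were 9 of the other genes, with Hars, the first Eif2s3y clone, Scye1 and Vars among them. Mrpl23 was a tie, since 26 of the 51 listed clones of its block were negative, itself included. Ties were counted as not on the side of most, for the members and for all listed clones.

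Genes that build ribosomes were described from a wider list of ribosome biogenesis and RNA polymerase I genes, of which 18 of 73 were named and measured. Of these, 10 lay on the positive side and 8 on the negative, beside 48.3% positive and 51.7% negative of all named genes. Their median log2 ratio was 0.23, which shows only which side held more genes, as listed clones avoid values near 0. Noc2l, related to a yeast factor of large subunit transport and known as an inhibitor of histone acetylation, had 2.79 and 2.13, and Utp18, of the small subunit processome, had 2.31 and 1.38. Both lay farther out than any member. Nucleolin, Ncl, had 0.62 and 0.40, and Taf1d, of the RNA polymerase I initiation complex, had 0.55 and 0.32. On the negative side Gnl3, a nucleolar GTPase, had -0.49 and -0.32, Emg1, a ribosomal RNA methyltransferase, had -0.25 and -0.59, and Ddx52, a helicase, had -0.20 and -0.83. Of 31 genes of mTOR and stress signalling 3 were named, the kinases given above and Pdcd4, an inhibitor of the helicase Eif4a1, at -0.34 and -0.51.

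The lung label could not be checked, since ratios give no levels and none of the listed markers of alveolar type I and II cells, endothelium, red cells, leukocytes or lymphocytes was named in the tables. Of the fibroblast and smooth muscle markers Col1a2 had -0.21 and -0.17 and Myh11 0.54 and 0.71, and of the heart markers Myh6 had -0.19 and -0.56 and Tnnt2 0.47 and 1.26. The airway marker Krt8 averaged 0.04 and -0.16 over clones that lay on opposite sides. The part of cell makeup in the ratios was not tested.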

How the data were processed

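Two-colour spotted cDNA arrays were hybridised with knockout RNA in Cy3 and wild-type RNA in Cy5, per the labels' protocols. The deposited value table gives a log2 ratio per clone and array; the sources used here give neither its normalization nor its background correction nor its numerator. Base 2 follows from the 3496 listed clones with both values, whose mean ratios regressed on log2-transformed folds of the authors with slope 0.974. The authors' lists, per the file headers, give a fold change and a p-value per listed clone, and served here for names and annotation.

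After leaving out 3 control features, 22532 clones with both values were fitted with limma 3.58.1 in R 4.3.3 (mean against 0, eBayes, two-sided) and Benjamini-Hochberg adjustment at 0.05. With 2 arrays, 1 residual degree of freedom per clone remains before moderation. The script was tested on simulated data. Clones of a gene were averaged within each array. Class was assigned by symbol, with S6 kinases and clones of conflicting name among the factors. No intensities or spot flags were used.

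The member genes are named, apart from a few that are not reported here one by one, and other genes come from the lists of ribosome biogenesis, of mTOR and stress signalling and of markers. Members and lists were chosen with earlier results of these data known. Alternatives were array centring, equal median absolute deviations, quantile normalization, block medians, robust eBayes, an unmoderated test, clones on at least 1 array, each array alone, single clones and the handling of conflicting names.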

Additional observations from a re-analysis of the deposited data

How the results depend on the processing

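The count of genes on the negative side stayed at 17 of 20 cytosolic ribosomal, 3 of 9 mitochondrial ribosomal and 15 of 33 other genes under centring, equal median absolute deviations, quantile normalization and block medians, and no member gene changed side under these 4. Listed clones avoid values near 0, so these counts had little room to change. The cytosolic median was -0.34 after quantile normalization and -0.26 with block medians subtracted. With block medians subtracted the mitochondrial median was 0.16 and that of the factors and synthetases 0.13. With each array alone, the medians ranged from -0.33 to -0.28, from 0.24 to 0.29 and from 0.15 to 0.21 for these 3 classes, with no test, and 17 to 18 cytosolic genes were negative. Past 1.5-fold on both arrays were 4 member clones after quantile normalization in place of 2, and each array alone put 7 and 8 past it. Limma called 0 clones in every adjusted fit, the unmoderated test included, and at an unadjusted p under 0.05 it gave 3138 clones, 43 of them members. Placing clones of conflicting name by gene ID was added after the data were seen. Each array already pairs the genotypes, so no further block could be fitted.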

Other observations

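Some clones of the ribosome and translation machinery in the authors' tables carry none of the annotations used here, and were picked by name after their values were seen. Mrps27, of the mitochondrial small subunit, had 1.39 on array 1 and 0.79 on array 2, and Mrpl46 had 0.59 and 0.38. Both lay on the positive side. Eef1a1, the common form of elongation factor 1 alpha, had -0.41 and -0.66, the same side as Eef1a2. Eif2b3, a subunit of the exchange factor for initiation factor 2, had 0.28 and 0.58, and Eif4enif1, which carries Eif4e into the nucleus, had -0.76 and -0.65. Rrbp1, a ribosome-binding protein of the endoplasmic reticulum, had 0.73 and 0.85, and Tpt1 had -0.22 and -0.20. Rps6ka5 and Rps6kc1, further genes named as S6 kinases, had means of -0.37 each. The clones under Eif4g3, whose gene ID is that of Hcfc1, had 2.19 and 1.38, and 0.50 and 0.41.

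Block 36 of the clone collection differed from its neighbours. In blocks 28 to 40 without it, 89.2% of 822 listed clones were negative, whereas in block 36 70.7% of 58 were positive. The median of all its clones was -0.0062 on array 1 and 0.16 on array 2. The positive Rpl38 clone and the Qars clone are in this block. With block medians subtracted these clones had means of 0.47 and 0.28, so they kept their side.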
